A study of Mus musculus with 12 samples.

Results

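Arpp21, calmodulin and the enzymes that calmodulin switches on were followed in the adult hippocampus as 9 genes: Arpp21, Calm2, Calm3, Camk2a, Camk2b, Camk2d, Camk2g, Camk4 and Ppp3ca. They were taken by name, with no measured value in the choice, and are 9 of 35580 genes with a matched transcript. They carry 114 of the 115270 transcripts in the deposited values, and 87 of the 114 reached 0.1 TPM in at least 6 of the 12 libraries and were tested. The C57BL/6 mice (C57BL/6J in the methods of the study) were male and sacrificed at postnatal day 70. Control mice came from water-drinking dams and stayed with them, ethanol mice came from dams that drank 10% ethanol by choice during gestation and, per the methods of the study, until postnatal day 10, stress mice were isolated for 3 h a day from postnatal day 2 to 14, and ethanol + stress mice had both exposures, with 3 mice in each group. Each library was made from the whole hippocampus, so that fewer cells of a type and less RNA per cell cannot be told apart. Pups of 1 litter were divided between isolation and staying with the dam, the litter of each mouse was not given in the sources used here, and p-values measure the spread between these samples.

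Calcium entering a neuron binds calmodulin, a small sensor protein that several genes encode identically. Loaded calmodulin activates the CaM kinase II enzymes, which the alpha, beta, gamma and delta genes Camk2a, Camk2b, Camk2g and Camk2d encode and which assemble into mixed holoenzymes, and the mainly nuclear CaM kinase IV of Camk4. It also activates the phosphatase calcineurin, whose catalytic subunit A alpha is the product of Ppp3ca. In hippocampal synapses CaM kinase II is known for its part in long-term potentiation and calcineurin for its part in long-term depression. Arpp21 encodes a small cAMP-regulated phosphoprotein that binds calmodulin once protein kinase A has phosphorylated it, and a longer protein with an R3H domain that binds RNA. The microRNA miR-128-2 is made from within the Arpp21 gene, and the related R3hdm1 gene holds miR-128-1.

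The values were TPM, a level corrected for transcript length, that had already been scaled between libraries, and a gene sum is the total over the transcripts of a gene. Library totals lay between 889222 and 1173650 TPM, and the spacing of low values gave 12090000 to 15000000 read pairs per library. All the marker lists of neurons, dentate granule cells, CA1 and CA3 pyramidal cells, interneurons and glia were detected, apart from 1 of 7 CA3 symbols, which was not found among the gene names. Ethanol replicate 2 and ethanol + stress replicates 2 and 3 stood apart. Mitochondrially encoded transcripts took 7.71%, 7.80% and 8.34% of their totals, against 5.73% to 6.93% in the other 9 libraries, and their oligodendrocyte, astrocyte and microglia marker sums included the highest ones measured. They also had the highest totals, the lowest neuron marker sums, of 2503, 2283 and 2194 TPM against 2576 to 2869 TPM, and the lowest slopes of level on transcript length, of -0.078, -0.054 and -0.043 on the log2 scale per doubling against -0.013 to 0.050. Their CA3 pyramidal marker sums went the other way and were the highest, at 780, 762 and 817 TPM against 640 to 733 TPM. The part of these differences in the results on members was not tested. The choroid plexus marker sum ranged from 40.1 to 7245 TPM, and the blood marker sum was 1603 to 2022 TPM among control mice and 2454 to 6815 TPM in the treated mice.

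Arpp21 (ENSMUSG00000032503.18) lies on the minus strand of chromosome 9 at chr9:112065091-112235938 in GRCm38, the build also named mm10. The starts of its 31 annotated transcripts fall into 4 regions, numbered 1 to 4 here in the direction of transcription. Region 1, chr9:112231902-112235938, began 10 transcripts and held 41.0% of the Arpp21 TPM. Region 2, chr9:112217261-112217351, began 5 transcripts with 2.45% of it. Region 3, chr9:112187647-112188474, began 11 transcripts with 37.6%, and region 4, chr9:112185769-112186093, began 5 transcripts with 18.9%. A RefSeq start from each region is shown with the 250 bases before it, read in the direction of the gene from GRCm38.p6, because these are sequences in front of annotated starts. In regions 1, 3 and 4 the window overlaps an annotated exon, and some starts of the region lie inside or upstream of it. Part of such a window can thus lie within the transcripts measured below. Only the window of region 2 lies in front of all starts of its region. Of the windows without annotated UTR, the one farthest upstream in each region was taken. Capitals mark each CG dinucleotide, the target of DNA methylation.
region 1, chr9:112233313-112233562: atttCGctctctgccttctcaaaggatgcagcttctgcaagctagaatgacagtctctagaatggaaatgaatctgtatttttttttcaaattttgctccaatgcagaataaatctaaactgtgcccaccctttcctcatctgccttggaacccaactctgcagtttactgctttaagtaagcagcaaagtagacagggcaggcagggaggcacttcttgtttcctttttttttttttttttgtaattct
region 2, chr9:112217352-112217601: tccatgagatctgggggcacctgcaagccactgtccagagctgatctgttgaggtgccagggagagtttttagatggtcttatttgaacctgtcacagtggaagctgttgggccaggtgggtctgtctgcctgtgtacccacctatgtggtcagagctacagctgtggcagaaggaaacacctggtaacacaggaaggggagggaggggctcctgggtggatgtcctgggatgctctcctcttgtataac
region 3, chr9:112188348-112188597: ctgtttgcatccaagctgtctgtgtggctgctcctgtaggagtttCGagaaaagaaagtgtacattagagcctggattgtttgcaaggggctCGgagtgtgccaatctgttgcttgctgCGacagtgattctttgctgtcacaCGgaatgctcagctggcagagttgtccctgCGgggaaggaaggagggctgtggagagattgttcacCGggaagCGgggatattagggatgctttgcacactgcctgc
region 4, chr9:112185950-112186199: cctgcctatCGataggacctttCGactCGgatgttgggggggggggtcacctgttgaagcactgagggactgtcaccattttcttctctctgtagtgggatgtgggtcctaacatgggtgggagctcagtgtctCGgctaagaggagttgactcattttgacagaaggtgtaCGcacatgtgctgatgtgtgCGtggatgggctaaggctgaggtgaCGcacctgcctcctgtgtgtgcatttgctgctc

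The 4 windows held 1, 0, 7 and 7 CG dinucleotides, beside a median of 6 over 32851 promoter windows of the same length. The other 5 Arpp21 windows held from 3 to 10, so that the count depends on the start within a region. The window before a Camk2b start held 44 and that before a Camk2d start held 23. TGACG, the core of the cAMP response element, sought on either strand, occurred once in the Arpp21 window of region 4 and in none of the other windows shown. It was also in the other window of region 2, which held 3 CG, and in that of Calm3, while 17.8% of all promoter windows held it. The full element TGACGTCA was in 1.55% of all windows and in none of the 12 windows of the 4 member genes in the table, which are Arpp21, Calm3, Camk2b and Camk2d. These matches describe letters in a window and not binding.

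The Arpp21 locus also makes a microRNA, and its mature sequence is shown since the gene is one of 2 sources of the same product. The hairpin of miR-128-2 lies at chr9:112118636-112118711 on the minus strand, and that of miR-128-1 at chr1:128202361-128202430 on the plus strand. RefSeq gives the same 3p sequence for both, here with the seed, bases 2 to 8, in capitals. Their 5p arms differ.
mmu-miR-128-3p: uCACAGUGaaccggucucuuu
mmu-miR-128-2-5p: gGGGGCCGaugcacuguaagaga
mmu-miR-128-1-5p: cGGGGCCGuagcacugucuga

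Only transcripts that run across the hairpin can carry it, and 9 of the 31 Arpp21 transcripts do. They held 25.0% of the Arpp21 TPM over the 12 libraries, from 20.6% to 29.3% in single libraries. Their summed level was 33.6, 37.5 and 34.9 TPM among control, 36.7, 30.6 and 46.6 TPM among ethanol, 32.8, 33.7 and 37.2 TPM among stress and 37.9, 24.2 and 27.0 TPM among ethanol + stress mice. The groups overlapped, with the highest value in ethanol replicate 3 and the lowest in ethanol + stress replicate 2. In R3hdm1, 2 of 16 transcripts cross the miR-128-1 hairpin, and they held 33.3% of the R3hdm1 TPM at a mean of 15.4 TPM. Libraries of this kind measure the host transcripts and not the mature microRNA.

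Calmodulin was the most abundant member. By mean gene sum over the 12 libraries, a level per length, the order was Calm2 with 3326 TPM, Calm3 with 1389 TPM, Ppp3ca with 876 TPM, Camk2a with 582 TPM, Camk2b with 405 TPM, Camk2g with 146 TPM, Arpp21 with 138 TPM, Camk2d with 38.8 TPM and Camk4 with 24.6 TPM. The order of neighbours was the same in all 12 libraries except for Ppp3ca over Camk2a, which held in 11, and Camk2g over Arpp21, which held in 8. Camk2g and Arpp21 therefore did not differ beyond their spread, and the ranges of Ppp3ca and Camk2a, of Camk2a and Camk2b, and of Camk2d and Camk4 also overlapped.

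**Figure D1:**
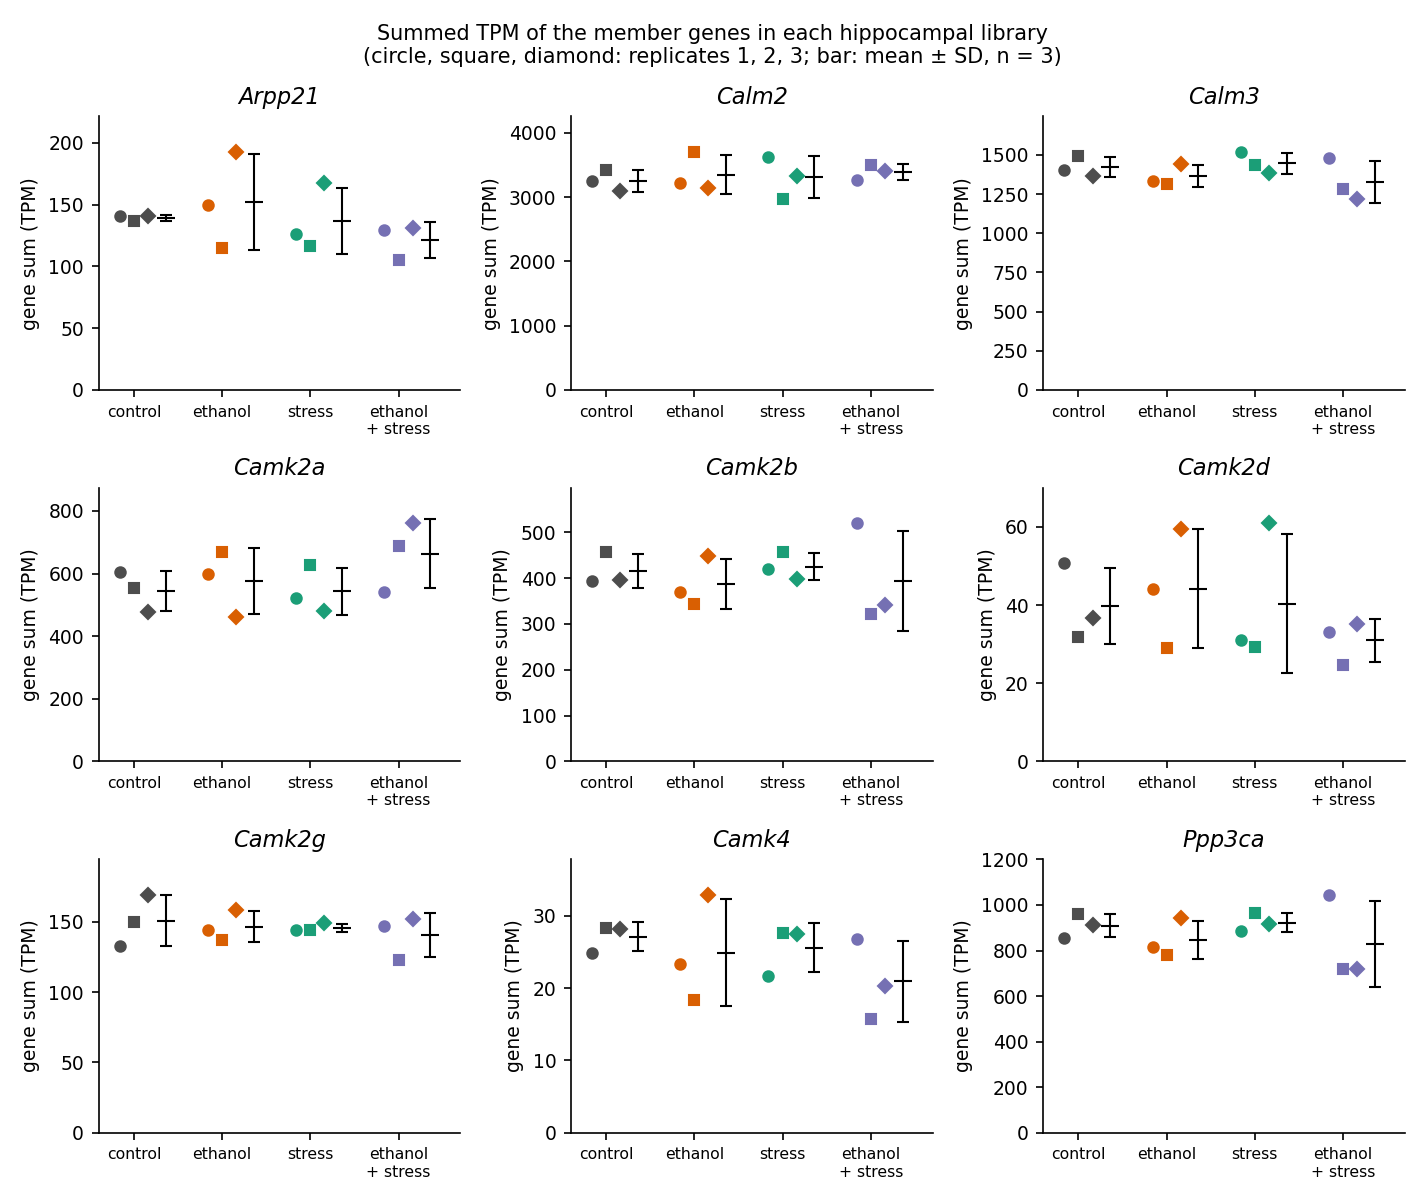
Gene sums in TPM (y axis) of the 9 member genes in the 12 hippocampal libraries, grouped by treatment on the x axis, with the mean ± SD of each group (n = 3). Control and treated libraries overlap for the calmodulin genes and the enzymes, and Arpp21 spreads from 115 to 193 TPM among ethanol mice beside 137 to 141 TPM among control mice.

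Arpp21 was steady in the control mice and varied in the treated mice, with an SD of 2.24 TPM among control and 39.0 TPM among ethanol mice. A wider spread among ethanol than among control mice was not particular to it. Every member showed this but Camk2g, with an SD of 18.2 TPM among control and 11.03 TPM among ethanol mice. The spread was not tested. The Arpp21 gene sum was 140.6, 136.7 and 140.6 TPM among control, 149.5, 114.8 and 192.6 TPM among ethanol, 125.9, 116.9 and 167.6 TPM among stress and 129.1, 104.9 and 131.1 TPM among ethanol + stress mice. All 3 ethanol + stress values lay under the lowest control value, whereas ethanol and stress values fell on both sides of the control range. With no true difference, 3 against 3 mice separate completely, in 1 direction or the other, with a probability of 0.1. Gene sums of the other members overlapped with control in every treatment. The difference of Arpp21 from control on the log2(TPM + 0.5) scale was 0.10 ± 0.18 (SE) for ethanol, -0.04 ± 0.18 for stress and -0.20 ± 0.18 for ethanol + stress, with unadjusted p of 0.598, 0.809 and 0.282 in limma. An interval of 2 SE around the ethanol + stress value runs from -0.56 to 0.16. Without ethanol replicate 3, the highest library, the ethanol value was -0.09, and without ethanol + stress replicate 2, the lowest, the ethanol + stress value was -0.10.

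The calmodulin genes had the narrowest range over the libraries. The Calm2 gene sum was 3248, 3421 and 3088 TPM among control, 3214, 3702 and 3136 TPM among ethanol, 3626, 2974 and 3327 TPM among stress and 3263, 3504 and 3409 TPM among ethanol + stress mice. For Calm3 the values were 1406, 1491 and 1366 TPM among control, 1333, 1313 and 1444 TPM among ethanol, 1518, 1436 and 1384 TPM among stress and 1480, 1280 and 1220 TPM among ethanol + stress mice. The highest library was 1.24 times the lowest for each of these genes, and treated and control values overlapped in every treatment. The log2 differences of Calm2 were 0.04 ± 0.16, 0.02 ± 0.16 and 0.06 ± 0.16 for ethanol, stress and ethanol + stress, and the first and last turned negative with libraries scaled to a common total and all 3 with the length trend removed. Those of Calm3 were -0.06 ± 0.12, 0.03 ± 0.12 and -0.10 ± 0.12. The Calm2 to Calm3 ratio of gene sums lay between 2.07 and 2.82 over the 12 libraries and did not separate the 4 groups in an exact permutation test of the group labels, with the one-way F of the log2 ratio over 15400 arrangements (p = 0.471).

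Among the CaM kinase II genes, Camk2a was higher and Camk2b lower in the same few libraries. Camk2a, the alpha subunit of forebrain excitatory neurons, was at 605, 553 and 478 TPM among control, 599, 667 and 462 TPM among ethanol, 521, 626 and 481 TPM among stress and 542, 688 and 760 TPM among ethanol + stress mice. Camk2b, the subunit that ties the holoenzyme to actin, was at 392, 458 and 395 TPM among control, 370, 343 and 448 TPM among ethanol, 420, 458 and 397 TPM among stress and 519, 322 and 340 TPM among ethanol + stress mice. Ethanol + stress replicates 2 and 3 had the highest Camk2a and the lowest Camk2b sums of all libraries, and replicate 1 of that group had the highest Camk2b sum. The log2 difference for ethanol + stress was 0.28 ± 0.17 for Camk2a (unadjusted p = 0.133) and -0.11 ± 0.17 for Camk2b (unadjusted p = 0.546) in limma.

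The Camk2a to Camk2b ratio of gene sums was 1.54, 1.21 and 1.21 in control, 1.62, 1.94 and 1.03 in ethanol, 1.24, 1.37 and 1.21 in stress and 1.04, 2.13 and 2.23 in ethanol + stress mice. It was highest in ethanol replicate 2 and ethanol + stress replicates 2 and 3, the libraries with the highest mitochondrial shares. The groups did not separate in the exact permutation test over 15400 arrangements (p = 0.58). The libraries with the highest ratios also had the highest CA3 pyramidal marker sums. The part of the mitochondrial share, of the glial marker sums and of the CA3 marker sum in this ratio was not tested.

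**Figure D2:**
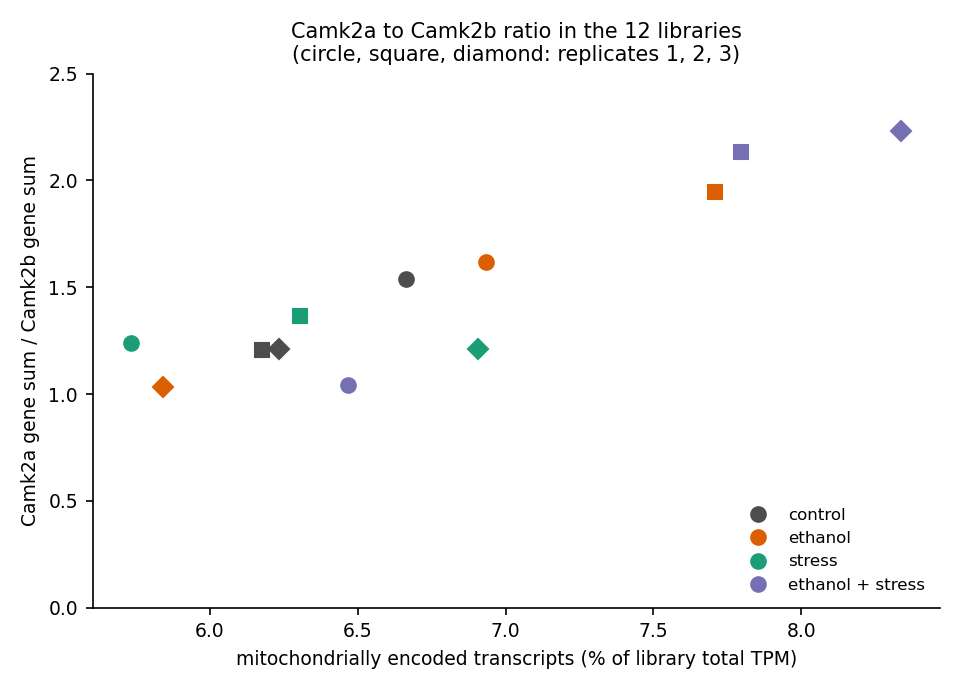
Ratio of the Camk2a gene sum to the Camk2b gene sum (y axis) against the share of mitochondrially encoded transcripts in percent of the library total (x axis), 1 point per library. The 3 libraries with shares of 7.71% to 8.34% have ratios of 1.94 to 2.23, and the other 9 have ratios of 1.03 to 1.62.

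Camk2d and Camk2g, the delta and gamma subunits, were the low members of the family. Camk2d was at 50.7, 31.9 and 36.6 TPM among control, 44.0, 29.1 and 59.6 TPM among ethanol, 31.1, 29.2 and 60.9 TPM among stress and 33.1, 24.7 and 35.1 TPM among ethanol + stress mice. It was the most variable member, with a highest library 2.46 times the lowest, and its high values stood in 1 library of each of the control, ethanol and stress groups. Camk2g lay between 122 and 169 TPM in all libraries, and its group means of 151 ± 18.2, 147 ± 11.03, 146 ± 2.84 and 140 ± 15.8 TPM (SD, n = 3) overlapped. The log2 difference for ethanol + stress was -0.34 ± 0.31 for Camk2d and -0.10 ± 0.11 for Camk2g. The Camk2d value was -0.15 without control replicate 1 and -0.19 without ethanol + stress replicate 2, and that of Camk2g was -0.013 without control replicate 3 and -0.0049 without ethanol + stress replicate 2. The Camk2d to Camk2g ratio did not separate the groups (exact permutation p = 0.802 over the same arrangements).

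Camk4 and Ppp3ca were lowest in the libraries with the highest Camk2a. Camk4, whose kinase phosphorylates the transcription factor CREB, was at 24.8, 28.3 and 28.2 TPM among control, 23.3, 18.4 and 32.9 TPM among ethanol, 21.7, 27.6 and 27.5 TPM among stress and 26.9, 15.7 and 20.3 TPM among ethanol + stress mice. The values of 18.4 and 15.7 TPM belong to replicate 2 of the ethanol and ethanol + stress groups. Ppp3ca was at 857, 959 and 910 TPM among control, 816, 779 and 942 TPM among ethanol, 885, 966 and 916 TPM among stress and 1045, 717 and 719 TPM among ethanol + stress mice. Ethanol + stress replicate 1 was the highest of all libraries for Ppp3ca, and replicates 2 and 3 were the lowest.

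For ethanol + stress, the log2 difference from control was -0.39 ± 0.22 for Camk4 (unadjusted p = 0.0936, the smallest of the 9 members in any treatment, adjusted p = 0.791 in limma) and -0.16 ± 0.15 for Ppp3ca (unadjusted p = 0.311). The interval of 2 SE for Camk4 runs from -0.83 to 0.04. Without ethanol + stress replicate 1, these values were -0.59 (unadjusted p = 0.0192) for Camk4 and -0.34 (unadjusted p = 0.0118) for Ppp3ca, and those of Camk2a and Camk2b were 0.41 (unadjusted p = 0.0333) and -0.32 (unadjusted p = 0.0263). Without replicate 2 of that group they were -0.21 for Camk4, -0.066 for Ppp3ca and 0.022 for Camk2b, and without replicate 3 they were -0.39, -0.069 and -0.017, while Camk2a was at 0.24 and 0.17. Without replicate 1, 18.2% of all gene sums had an unadjusted p under 0.05, against 5.37% with all libraries, and the remaining libraries of that group are the pair with high mitochondrial shares, whose part in the result was not tested.

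No member gene sum was called at an unadjusted p under 0.01 in limma. The count was 0 of 9 for ethanol, for stress and for ethanol + stress, with 0 also under 0.05, beside calls in 0.678%, 0.51% and 0.971% of all 18434 gene sums tested. The interaction of ethanol and stress and the test for any difference among the 4 groups also called 0 of 9, with 0 under 0.05, beside 0.461% and 0.721% of all gene sums. The median log2 difference of the members was -0.03 for ethanol, -0.01 for stress and -0.11 for ethanol + stress, while the median over all gene sums was 0.02, 0.00 and 0.02. Signs were mixed for ethanol and stress, with 4 members above 0 and 5 below in each, and 7 of 9 lay below 0 for ethanol + stress.

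**Figure D3:**
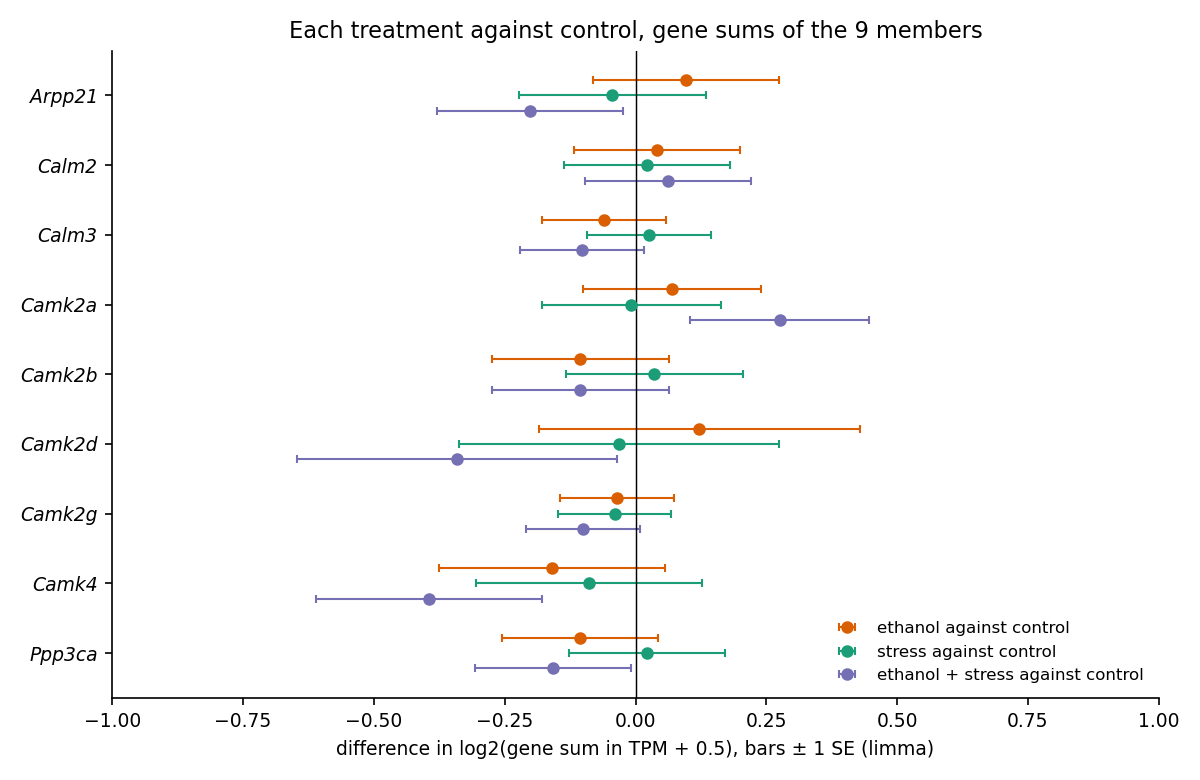
Difference of each treatment from control in log2(gene sum in TPM + 0.5) (x axis, bars ± 1 SE from limma) for the 9 members (y axis). All values lie between -0.39 and 0.28, and no member reached an unadjusted p under 0.05.

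Most members varied together across libraries, and Camk2a and Calm2 varied against them. In the 21 pairs among the other 7 members r was positive, from 0.12 to 0.96, and in 14 of the 15 pairs with Camk2a or Calm2 it was negative, the exception being that of Camk2a with Calm2 (0.34). Over the 12 libraries, Pearson's r of the log2 gene sums was 0.96 for Camk2b and Ppp3ca, 0.93 for Arpp21 and Camk2d, and 0.87 for Calm3 and Camk2b. It was -0.75 for Camk2a and Camk4, -0.73 for Camk2a and Ppp3ca and -0.71 for Calm2 and Camk4. These values describe libraries that share depth, dissection and library composition, and the libraries with high mitochondrial shares sit at 1 end of several of them. The genes most like Arpp21 among 11239 others with a mean of at least 5 TPM were Zdhhc22 (r = 0.96), Mef2c (r = 0.94), Adcy8 (r = 0.94), Camk2d (r = 0.93) and Shisa9 (r = 0.92), over the same 12 libraries. Adcy8 encodes an adenylyl cyclase that calmodulin stimulates, and Mef2c a neuronal transcription factor.

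Most Arpp21 RNA was not annotated as coding. Processed transcripts, which have no coding sequence, held 48.3% of the Arpp21 TPM, protein-coding transcripts 33.0% and retained-intron transcripts 18.6%. The most abundant was Arpp21-219, a processed transcript of 427 bases in 2 exons, with a mean of 26.4 TPM and a range of 19.2 to 33.2 TPM. Arpp21-218, a processed transcript from start region 3, had a mean of 26.0 TPM. Arpp21-221, with a mean of 17.3 TPM, was the main transcript with the long coding sequence, of 2427 bases. It was at 16.7, 19.6 and 18.7 TPM among control, 17.1, 13.3 and 28.1 TPM among ethanol, 13.6, 17.4 and 16.3 TPM among stress and 21.3, 11.8 and 13.7 TPM among ethanol + stress mice. The groups overlapped for each of these 3 transcripts, and the short to long coding ratio of Arpp21 (coding sequences of at most 300 against at least 1500 bases) did not separate the groups (exact permutation p = 0.29 over the same arrangements). The same exact permutation test gave p = 0.00844 without control replicate 2, in which it was highest at 0.118.

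The Arpp21 transcripts of start region 2 were few, and lower in control mice than in the rest. Their summed level was 2.02, 1.59 and 1.14 TPM among control, 3.59, 6.83 and 5.54 TPM among ethanol, 3.45, 2.92 and 2.81 TPM among stress and 4.86, 2.75 and 2.94 TPM among ethanol + stress mice, with no overlap between the control and the treated values. This region was singled out after its values were seen and got no test. The blood marker sum was divided in the same way, at 1603 to 2022 TPM among control and 2454 to 6815 TPM among treated mice, and both sums were highest in ethanol replicate 2. The part of blood in the region 2 sum was not tested. Treated libraries fell on both sides of the control range in the other 3 regions. In region 1 the sum was 57.6 ± 6.95 TPM among control and 49.9 ± 8.81 TPM among ethanol + stress mice, in region 3 it was 54.1 ± 4.13 and 45.1 ± 14.8 TPM, and in region 4 it was 26.0 ± 5.64 and 23.2 ± 5.69 TPM (SD, n = 3).

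**Figure D4:**
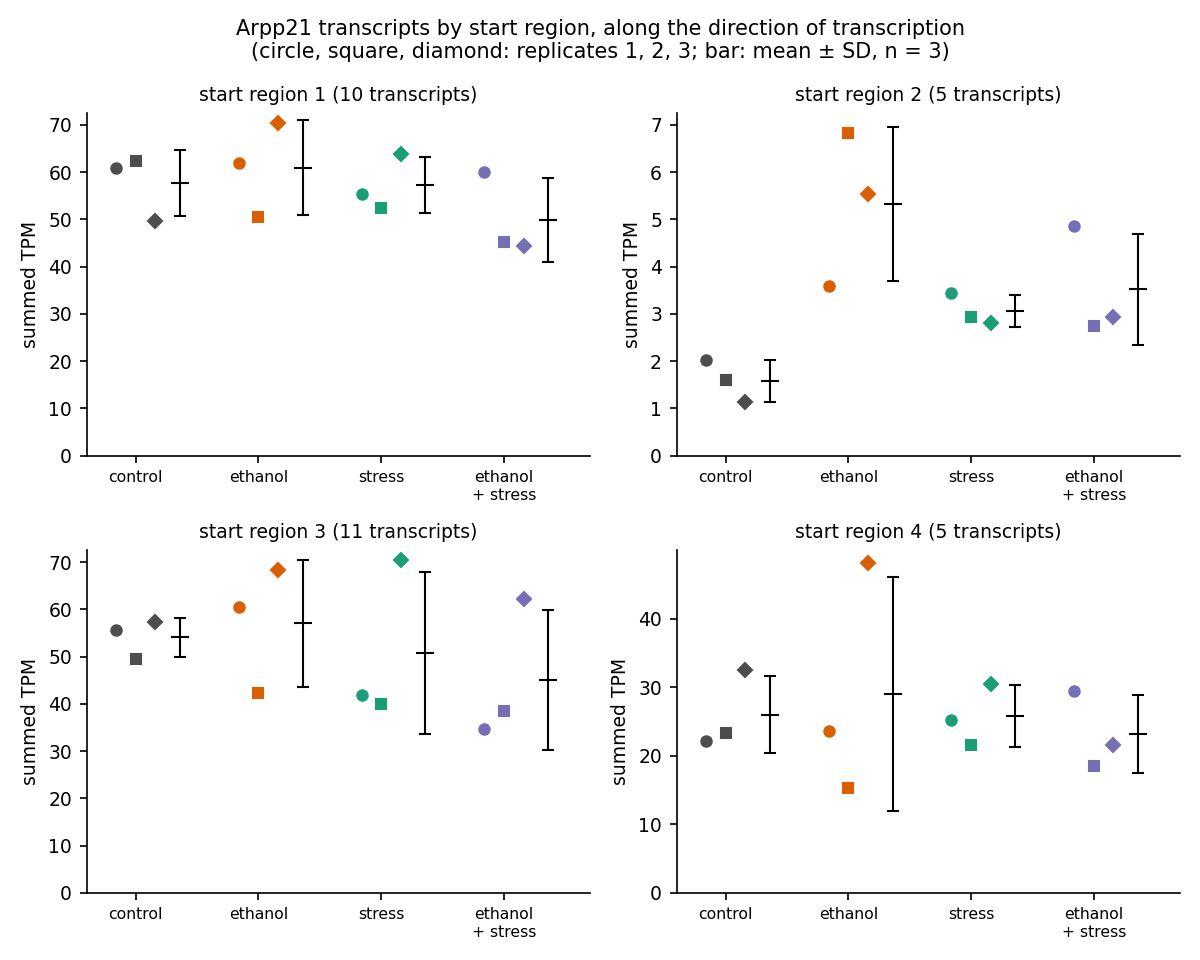
Summed TPM (y axis) of the Arpp21 transcripts that begin in each of the 4 start regions, in the 12 libraries by group (x axis), with the mean ± SD of each group (n = 3). In region 2, from 1.14 to 6.83 TPM, every treated library lies above the 3 control libraries, while in the other regions treated libraries lie on both sides of them.

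The study lists Arpp21 with increased transcript expression among stress and among ethanol + stress mice. That result came from sleuth and not from limma, and the transcript is not named there. Here, the single Arpp21 transcripts with the smallest p in each treatment were rare ones. For ethanol it was Arpp21-225, a short coding transcript that begins in start region 2, at 1.03, 0.91 and 0 TPM among control, 1.64, 2.56 and 3.40 TPM among ethanol, 0.74, 1.88 and 1.97 TPM among stress and 2.23, 0.83 and 1.38 TPM among ethanol + stress mice (log2 1.52 ± 0.50, unadjusted p = 0.0115, adjusted p = 0.784 in limma). For stress it was Arpp21-224, a processed transcript at 1.71, 0 and 0 TPM among control and 2.63, 1.89 and 5.25 TPM among stress mice and listed at 0 in 4 of the 12 libraries (unadjusted p = 0.0355, adjusted p = 1 in limma). For ethanol + stress it was Arpp21-231, which starts in region 3 and carries a short coding sequence of 264 bases. The level of Arpp21-231 was 0, 0.14 and 0 TPM among control, 0.69, 0.27 and 0.78 TPM among ethanol, 0.80, 0.14 and 0.33 TPM among stress and 0.59, 0.23 and 1.04 TPM among ethanol + stress mice. Control values stood for at most 3.3 read pairs and those of ethanol + stress for 16.9, 6.7 and 26.9 read pairs, so that the fitted difference of 0.98 ± 0.35 on the log2 scale depends on the pseudocount and bounds no fold (unadjusted p = 0.0168).

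At the level of transcripts, 0 of the 87 tested member transcripts were called by limma for ethanol, beside 1.26% of all 59852 transcripts, with 10 members at an unadjusted p under 0.05, where 5.43% of all transcripts were. The count was 0 for stress, beside 0.914%, with 3 under 0.05 (3.88% of all). For ethanol + stress it was 1, beside 1.21%, with 8 under 0.05 (5.57% of all), and for the interaction of ethanol and stress it was 1, beside 0.854%, with 4 under 0.05 (4.06% of all). A share of 1 in 87 is near these backgrounds. As log2 isoform ratios, the level of a transcript against the rest of its gene, 0 of 86 were called for ethanol beside 1.31% of all 52732 ratios (8 under 0.05, 5.91% of all), 0 for stress beside 1.05% (4 under 0.05, 4.71% of all) and 1 for ethanol + stress beside 1.28% (5 under 0.05, 5.7% of all).

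The transcript called for ethanol + stress was Camk2d-221, a coding isoform with 15.02% of the Camk2d TPM. Its level was 7.09, 6.84 and 7.37 TPM among control, 6.21, 4.72 and 10.5 TPM among ethanol, 6.57, 5.64 and 5.57 TPM among stress and 5.25, 2.35 and 1.89 TPM among ethanol + stress mice. All ethanol + stress values lay below the control values, and the lowest were those of replicates 2 and 3. The log2 difference was -1.16 ± 0.33, with an unadjusted p of 0.0051 and an adjusted p of 0.769 in limma. The call was lost, at a similar difference of -1.14 to -1.19, without any single control library (unadjusted p of 0.0142, 0.0127 and 0.0158 without replicates 1, 2 and 3) and, at -1.03 and -0.91, without ethanol + stress replicate 2 or 3 (0.0209 and 0.0247). The most abundant Camk2d isoform, Camk2d-206 with 36.7% of the gene, had a log2 difference of -0.47 ± 0.37 in the same comparison.

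Calm3-204 was called for the interaction, at -1.91 ± 0.59 on the log2 scale (unadjusted p = 0.00797, adjusted p = 1 in limma). It is a processed transcript of 482 bases with 0.954% of the Calm3 TPM, and its level was 18.4, 5.71 and 14.9 TPM among control, 21.2, 11.6 and 14.6 TPM among ethanol, 13.4, 15.4 and 26.1 TPM among stress and 4.28, 5.45 and 8.03 TPM among ethanol + stress mice. The ethanol + stress values lay below all ethanol and stress values, while control replicate 2 fell among them. The call was lost in 7 of the 12 fits that left out 1 library, with values of -1.42 to -1.999. Calm3-201, the coding transcript with 99.0% of the gene, had an interaction of -0.05 ± 0.16.

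The called ratio was that of Arpp21-231 for ethanol + stress, at 1.19 ± 0.34 on the log2 scale (unadjusted p = 0.00492, adjusted p = 0.734 in limma). It was lost without control replicate 1 or 3 or ethanol + stress replicate 1 or 3, where the value was 1.12, 1.12, 1.22 and 0.98 at unadjusted p of 0.0178, 0.0178, 0.0111 and 0.0239. It rests on the same few read pairs as the level of that transcript.

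**Figure D5:**
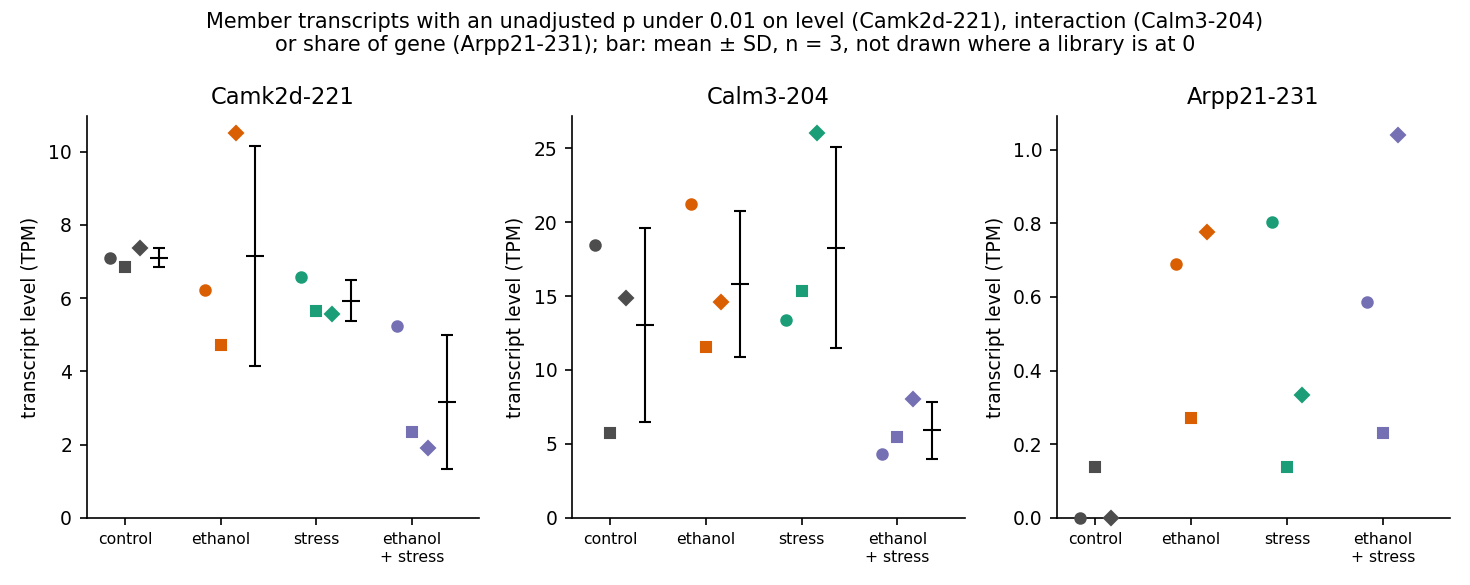
Level in TPM (y axis) of Camk2d-221, Calm3-204 and Arpp21-231 in the 12 libraries by group (x axis), with the mean ± SD (n = 3) where no library is at 0. Camk2d-221 is at 1.89 to 5.25 TPM among ethanol + stress mice beside 6.84 to 7.37 TPM among control mice, and Arpp21-231 is listed at 0 in 2 control libraries.

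None of the remaining isoforms that hold at least 10% of a member was called. Calm2-201 held 99.8% of Calm2. Camk2a-203, the main coding isoform of Camk2a, held 84.1% of its gene and the short Camk2a-207 held 11.7%. Camk2b-209 held 79.2% of Camk2b and the processed transcript Camk2b-211 held 11.04%. The retained-intron transcript Camk2d-217 held 12.4% of Camk2d. Camk2g was spread over Camk2g-201, Camk2g-212, Camk2g-203, Camk2g-202 and Camk2g-215, with 20.0%, 17.9%, 17.4%, 13.1% and 10.2%. Camk2g-202 was at 26.2, 23.6 and 18.9 TPM among control and 18.8, 10.6 and 15.02 TPM among ethanol mice, with no overlap, a log2 difference of -0.64 ± 0.25 and an adjusted p of 0.866 in limma, while the Camk2g gene sum differed by -0.03 ± 0.11. Such a separation of 3 against 3 mice, in either direction, has a probability of 0.1 with no true difference. Ppp3ca was divided between Ppp3ca-201, with 451.8 TPM and a coding sequence of 1563 bases, and Ppp3ca-202, with 418.0 TPM and one of 1533 bases. The share of Ppp3ca-201 stayed between 48.4% and 54.0% in all libraries. Camk4 has 1 annotated transcript in the set used.

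Other genes of the calmodulin pathway were read from lists of calmodulin buffers, CaM kinases, calcineurin and its regulators, other calmodulin-dependent proteins, and PKA-regulated phosphoproteins related to Arpp21. Of 66 such genes, limma called 0 in each treatment, with 1 at an unadjusted p under 0.05 for ethanol, 2 for stress and 2 for ethanol + stress, beside 3.63%, 2.4% and 5.37% of all gene sums under 0.05. Their median log2 difference was -0.02 for ethanol, -0.01 for stress and -0.05 for ethanol + stress. The count called for ethanol + stress was 6 without ethanol + stress replicate 1, where calls over all gene sums also rose, from 0.971% to 4.14%. It was 1 without replicate 2 of that group and 1 without stress replicate 1, beside 0.64% and 0.852% of all gene sums. Ppp3cb, the A beta catalytic subunit of calcineurin, differed from control by -0.05 ± 0.07, -0.05 ± 0.07 and -0.08 ± 0.07 on the log2 scale for ethanol, stress and ethanol + stress. Ppp3r1, its regulatory subunit B, differed by -0.08 ± 0.08, -0.02 ± 0.08 and -0.05 ± 0.08.

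The 19 other calmodulin-dependent proteins, among them adenylyl cyclases, phosphodiesterases, calcium pumps and nitric oxide synthase, had 15 genes below 0 and 4 above for ethanol + stress, with a median log2 difference of -0.24 and none called. Of the 19, 14 lay below the control range in ethanol + stress replicate 2 and 12 in replicate 3, the libraries that stood apart, against 5 in replicate 1, in which 9 lay above it. The part of these libraries in the difference was not tested. The 7 genes of the list with calmodulin buffers, which include the calmodulin-sequestering Nrgn and Pcp4, had 6 above 0 for ethanol with a median of 0.11 and none called. The genes with an unadjusted p under 0.05, named after their values were seen, were Cabin1 for ethanol (0.23), Dapk2 (-0.62) and Pcp4l1 (0.36) for stress, and Nfatc4 (0.75) and Nos1 (-0.41) for ethanol + stress, each as a log2 difference. Adjusted p was at least 0.791 for each of them in limma.

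Of 319 tested transcripts of these other genes, limma called 5 for ethanol, 2 for stress and 4 for ethanol + stress, beside 1.26%, 0.914% and 1.21% of all transcripts, and 1 of them is described although it was chosen after its values were seen. Dapk3-205, a coding isoform of a death-associated kinase, was at 3.55, 3.61 and 3.61 TPM among control and 2.64, 0.52 and 2.96 TPM among stress mice, and was listed at 0 in all 6 libraries of the ethanol and ethanol + stress mice. An exact 0 can be a failed estimate where isoforms share sequence, and the Dapk3 gene sum differed from control by -0.02 for ethanol and 0.03 for ethanol + stress on the log2 scale. The unadjusted p of Dapk3-205 was 1.56e-05 in both comparisons and its adjusted p 0.233 and 0.171 in limma.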

How the data were processed

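RNA-Seq values of 12 hippocampal libraries were analysed, 3 each from control, ethanol, stress and ethanol + stress mice, grouped by their labels. The deposited signal was made by the authors as TPM per transcript: paired-end reads of stranded total RNA libraries depleted of rRNA were pseudo-aligned to Ensembl mouse transcripts with kallisto (the submitters' processing notes name mm10, that is GRCm38) and scaled between libraries with sleuth, whose versions are not given in the sources used here. kallisto divides read pairs that fit several transcripts by an estimate, so that levels of similar isoforms are less certain than gene sums. Of 115270 transcripts, 113580 were matched to GENCODE vM21 by identifier, and the unmatched ones held 0.518% to 0.58% of a library.

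TPM hold no depth, but low values of genes with 1 transcript lay near multiples of a step, of which 74.3% to 79.7% came out as whole read pairs within 0.1. That step gave the read pairs quoted, with a mean fragment of 195 to 205 bp, and 3 read pairs were taken as the floor. Such floors cover counting error only.

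A feature entered the tests if 6 or more libraries held 0.1 TPM or more. Gene sums, transcripts and isoform ratios were compared on the scale of log2(TPM + 0.5), where changes of low features come out too small, with limma 3.58.1 in R 4.3.3 (lmFit, eBayes with trend), in 1 model of the 4 groups, 2-sided. Calls have an unadjusted p under 0.01, the threshold of the study, and adjusted p is by Benjamini-Hochberg over all features tested. Ratios of members were compared by an exact permutation test of the one-way F of their log2. On simulated data for ethanol against control, calls were made for 88% of gene sums, 66% of transcripts and 39% of isoform ratios with a true log2 change of 1, and 1.07% of unchanged gene sums. The changed gene sums and transcripts were drawn only from those with a mean log2(TPM + 0.5) above 1. Their rates therefore do not cover lower features. Tables were joined with Python 3.11.15 and pandas 2.3.3.

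The members and lists were chosen with earlier results of these data known. Named were all members, their transcripts with the highest mean, with 10% or more of the gene or with a call, the Arpp21 transcript with the smallest p per treatment, called pathway genes (none was) with Ppp3cb and Ppp3r1, and the 5 genes most correlated with Arpp21. A further gene of this rule is not reported here, and pathway genes at p under 0.05, Dapk3-205 and start region 2 were named after their values were seen. Promoter and microRNA sequences are from RefSeq (GRCm38.p6), of which the promoter table used here held entries for 4 of the 9 members. Alternatives were other pseudocounts, filters, scalings, a length correction, eBayes without trend, only the groups compared, a replicate block and leaving out each library.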

Additional observations from a re-analysis of the deposited data

Results flagged for a closer look

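Calm3-204, a processed transcript of the calmodulin gene Calm3, is given here because its difference between ethanol-exposed and water-exposed mice differed between separated and undisturbed mice at an unadjusted p under 0.01, a call that adjustment over all transcripts did not keep. The interaction of ethanol and stress was -1.91 ± 0.59 (SE) on the log2 scale, with an unadjusted p of 0.00797 and an adjusted p of 1 in limma. Its level was 18.4, 5.71 and 14.9 TPM among control, 21.2, 11.6 and 14.6 TPM among ethanol, 13.4, 15.4 and 26.1 TPM among stress and 4.28, 5.45 and 8.03 TPM among ethanol + stress mice, which stood for 10.9, 13.8 and 18.0 read pairs in the last group. Without 1 library at a time the value stayed between -1.999 and -1.42 where the call was lost, which occurred for control replicate 2, ethanol replicates 1 and 3, stress replicates 2 and 3 and ethanol + stress replicates 1 and 2, at unadjusted p of 0.0117 to 0.022. The cause was not tested.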

How the results depend on the processing

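No member gene sum was called in any of 594 values under the alternatives. The smallest unadjusted p was 0.0118, and the 4 values under 0.05 all came from leaving out ethanol + stress replicate 1, where 18.2% of all gene sums were under 0.05. Member values near 0 changed sign in 35 cases. Rescaling to a common total gave Calm2 -0.042 for ethanol and -0.074 for ethanol + stress, and Camk2a -0.012 for ethanol. Removing the length trend gave Calm2 -0.036, -0.0071 and -0.042 for ethanol, stress and ethanol + stress.

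Leaving out 1 library at a time gave, for ethanol, ranges of -0.088 to 0.28 for Arpp21, -0.033 to 0.086 for Calm2, -0.045 to 0.22 for Camk2a, -0.12 to 0.39 for Camk2d, -0.12 to 0.052 for Camk2g and -0.38 to 0.033 for Camk4. For stress they were -0.20 to 0.060 for Arpp21, -0.047 to 0.10 for Calm2, -0.010 to 0.060 for Calm3, -0.11 to 0.074 for Camk2a, -0.019 to 0.11 for Camk2b, -0.37 to 0.16 for Camk2d, -0.13 to 0.047 for Camk2g, -0.15 to 0.026 for Camk4 and -0.019 to 0.062 for Ppp3ca. For ethanol + stress the range of Camk2b was -0.32 to 0.022.

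Counts of called member transcripts for ethanol were 1 with a pseudocount of 0.1 or 1 or with the length trend removed, beside 1.22%, 1.28% and 1.2% of all transcripts, 2 with only the groups compared and 4 with eBayes without trend, beside 1.36% and 1.41%. For ethanol + stress they were 2 with a pseudocount of 0.1 (1.19% of all) and 0 with only the groups compared (1.34% of all), where the unadjusted p of Camk2d-221 was 0.0122. For the interaction they were 0 without a filter (0.764% of all) or without the trend (0.924% of all), where the unadjusted p of Calm3-204 was 0.0111 and 0.0117. The filter, the trend and the choice of groups cannot change a fitted difference, whereas the pseudocount and the length correction can. Called isoform ratios were 1 for ethanol with a pseudocount of 0.1 (1.38% of all), 2 for stress with a pseudocount of 1 (0.944%), 1 for stress with the length trend removed (1.14%) and 0 for ethanol + stress at a minimum of 1 TPM (1.17%). Called pathway gene sums were 1 for stress with only the groups compared (0.749% of all) and 1 for ethanol + stress with the length trend removed (1.02%). Leaving out 1 library gave 0 to 4 member transcripts for ethanol, 0 to 1 for stress, 0 to 2 for ethanol + stress and 0 to 2 for the interaction, beside 0.991% to 1.42%, 0.852% to 1.02%, 1.02% to 2.23% and 0.83% to 1.03% of all transcripts. It gave 0 to 4, 0 to 1 and 0 to 2 isoform ratios, beside 1.09% to 1.41%, 0.937% to 1.14% and 1.12% to 1.66% of all. Both counts of 4 came without control replicate 1. Pathway genes were 0 to 1 for stress and 0 to 6 for ethanol + stress, beside 0.461% to 0.586% and 0.618% to 4.14% of all gene sums. For the short to long coding ratio of Arpp21, the exact p ranged from 0.00844 to 0.596. The causes were not tested.

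Libraries with the same replicate number did not deviate together, with correlations of -0.17 to 0.16 over 18 pairs beside -0.33 to 0.34 over 36 pairs with different numbers. A replicate block called 2 pathway gene sums for ethanol + stress in place of 0, beside 0.901% of all gene sums, and changed no other call reported here. With 3 mice per group and 12090000 to 15000000 read pairs, levels under about 1 TPM rest on few reads.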
